A study of Mus musculus with 3 samples.

Results

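The 9 chemokine receptor genes described here are Ccr1, Ccr2, Ccr6, Ccr7, Ccr9, Cxcr4, Cxcr5, Cxcr6 and Cx3cr1, chosen by name from the 32285 genes counted in the series. They were followed across immune cells of the mouse aorta in 3 single-cell RNA libraries, 1 per group. All mice were ApoE-/- on a C57BL/6J background, so the control also lacks apolipoprotein E by its label, a genotype that raises plasma cholesterol and predisposes to atherosclerosis. The control mice carry no treatment in their label, the mice of the HHcy group drank water with 1.8 g/L Hcy (the usual short form of homocysteine) for 4 weeks, and the mice of the WD group ate a western diet for 4 weeks. Whole aortas with their adventitia but without fat were digested at 37 °C, and live nucleated CD45+ cells (CD45 marks white blood cells) were sorted and run with 10x 3' v3 chemistry. How many mice were pooled into each library is not given in the sources used here.

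With 1 library per group, no difference between groups could be tested. Levels are in CPM: the UMIs (distinct captured RNA molecules) of a gene, per 1000000 UMIs of the class of cells it was read in. They are given in the order control, library labelled HHcy, WD. Intervals are 95% and cover counting error only, not the spread between mice or dissections, and cells of 1 library are not replicates. Both comparisons with the control use the same control library.

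Apoe was measured first, since its loss is the shared genotype. It stood at 16.3 CPM in the control, 374 CPM in the library labelled HHcy and 19.3 CPM under WD, over all barcodes. In macrophages and monocytes it was 29.0, 1158 and 26.9 CPM. The library labelled HHcy therefore goes against its genotype label, and every direction drawn from it below carries that limit; the class with the highest level was the same without it for 9 of 9 receptors. Of 7512, 9753 and 8557 barcodes, 5347, 6270 and 5233 cells were used, with median depths of 7570, 6730 and 8145 UMIs. The libraries shared 20 to 24 cell barcodes pairwise. Ptprc, which encodes CD45, was detected in 94.5% to 95.7% of the cells in named immune classes, while 30, 88 and 169 cells carried stromal markers. Classes and subsets were named from marker genes with no chemokine or chemokine receptor among them; every name below stands for "X-like".

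Chemokine receptors are G protein-coupled receptors that sense gradients of small secreted chemokines and steer cells into and through tissue. CXCR5, CCR7 and CCR6 guide B cells, T cells and dendritic cells toward and within lymphoid tissue, by way of CXCL13, CCL19 and CCL21, and CCL20. CCR2 lets monocytes leave the bone marrow toward CCL2, CX3CR1 binds the membrane-bound chemokine CX3CL1, and CCR1 binds several inflammatory CC chemokines such as CCL3 and CCL5. CXCR6 binds CXCL16 and marks tissue-resident lymphocytes, CCR9 binds CCL25 of thymus and gut, and CXCR4 binds CXCL12, which retains cells in bone marrow and tissue. In the atherosclerotic aorta these receptors are known mainly for the recruitment of monocytes and for lymphoid aggregates in the adventitia.

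Of the 9 genes, 4 lie in a cluster of chemokine receptor genes on chromosome 9 (GRCm38, GENCODE M21), in the order Ccr9, Cxcr6, Ccr1 and Ccr2, with Xcr1 between Cxcr6 and Ccr1 and with Ccr1l1 and Ccr3 between Ccr1 and Ccr2. The 4 sit at chr9:123678439-123784330 (Ccr9, plus strand), chr9:123806475-123811760 (Cxcr6, plus strand), chr9:123962124-123968692 (Ccr1, minus strand) and chr9:124101950-124113557 (Ccr2, plus strand). Cx3cr1 (chr9:119901616-120069879) and Cxcr5 (chr9:44511787-44561877) are on the minus strand of the same chromosome. Cxcr4 is at chr1:128588199-128592293 and Ccr7 at chr11:99144196-99155077, both on the minus strand, and Ccr6 is at chr17:8236043-8257141 on the plus strand. Although they are neighbours, the 4 cluster members reached their highest levels in 3 different classes, given below: Ccr9 in plasmacytoid dendritic cells, Cxcr6 and Ccr2 in group 2 innate lymphoid cells (ILC2) and Ccr1 in neutrophils. For that reason the 250 bases before the start of each are shown, from RefSeq's GRCm38.p6 annotation, 5′ to 3′ on the gene's strand. They cover chr9:123766961-123767210 (Ccr9), chr9:123806227-123806476 (Cxcr6), chr9:123968693-123968942 (Ccr1) and chr9:124101933-124102182 (Ccr2). The starts are those of RefSeq and can differ from the GENCODE spans above. The Ccr9 window lies inside its span, and most of the Ccr2 window does too. Capitals mark a match to 1 of the 3 motifs searched.
Ccr9: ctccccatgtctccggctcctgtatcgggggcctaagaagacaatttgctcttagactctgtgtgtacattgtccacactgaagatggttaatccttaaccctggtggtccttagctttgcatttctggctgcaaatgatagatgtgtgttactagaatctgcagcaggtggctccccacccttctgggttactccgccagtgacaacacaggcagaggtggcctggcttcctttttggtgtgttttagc
Cxcr6: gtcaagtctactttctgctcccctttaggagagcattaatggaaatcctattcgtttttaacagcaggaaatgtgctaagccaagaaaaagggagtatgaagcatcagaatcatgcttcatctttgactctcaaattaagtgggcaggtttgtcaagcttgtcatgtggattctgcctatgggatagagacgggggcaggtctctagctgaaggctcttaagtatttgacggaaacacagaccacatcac
Ccr1: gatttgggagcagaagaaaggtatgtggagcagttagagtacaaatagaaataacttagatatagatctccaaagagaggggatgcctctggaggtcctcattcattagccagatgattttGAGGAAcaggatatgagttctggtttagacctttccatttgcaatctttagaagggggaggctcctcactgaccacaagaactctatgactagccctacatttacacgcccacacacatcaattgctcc
Ccr2: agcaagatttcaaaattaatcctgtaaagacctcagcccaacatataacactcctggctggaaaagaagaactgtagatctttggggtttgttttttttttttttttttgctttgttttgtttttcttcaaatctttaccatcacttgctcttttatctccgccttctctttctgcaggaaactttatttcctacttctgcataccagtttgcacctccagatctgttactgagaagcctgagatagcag

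The motifs were searched on both strands: AP-1 (TGANTCA), the core of the PU.1 site (GAGGAA) and C/EBP (TTGCNNAA). Over all 32851 upstream windows of this length, 6.75%, 23.3% and 9.56% hold them. The Ccr1 window held 1 PU.1 core, 129 bases before the start, and the other 3 windows shown held none of the motifs. Upstream windows were matched for 7 of the 9 receptors, as 8 windows since Ccr6 has 2; the only other match to any of the 3 motifs was a PU.1 core, TTCCTC on the gene's strand, 218 bases before the first start of Ccr6. No 2 matches overlapped. A match is a run of letters and not an occupied site.

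The receptors differed in breadth. Summed over the 10 named immune classes and the 3 libraries, Cxcr4 gave 45365 UMIs, Ccr7 35016, Ccr2 19991, Cx3cr1 13723, Cxcr5 10547, Ccr1 9890, Ccr6 4130, Ccr9 1168 and Cxcr6 986. Cxcr4 had a mean level of at least 100 CPM in 7 classes and Ccr2 in 6, against 3 for Ccr7, 2 for Cxcr6 and Cx3cr1, 1 for Ccr1, Ccr9 and Cxcr5, and 0 for Ccr6. Nearly all UMIs of Cxcr5 (97.8%) and Ccr6 (97.1%) came from B cells, and 92.4% of those of Cx3cr1 from macrophages and monocytes. Macrophages and monocytes also gave 70.2% of the Ccr2 UMIs, although the level per cell type was highest in ILC2, which gave 2.03%. These shares depend on how many cells of each class were captured: 2225, 3677 and 1232 B cells, 1991, 1195 and 2657 macrophages and monocytes, but only 27, 37 and 35 ILC2.

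**Figure D1:**
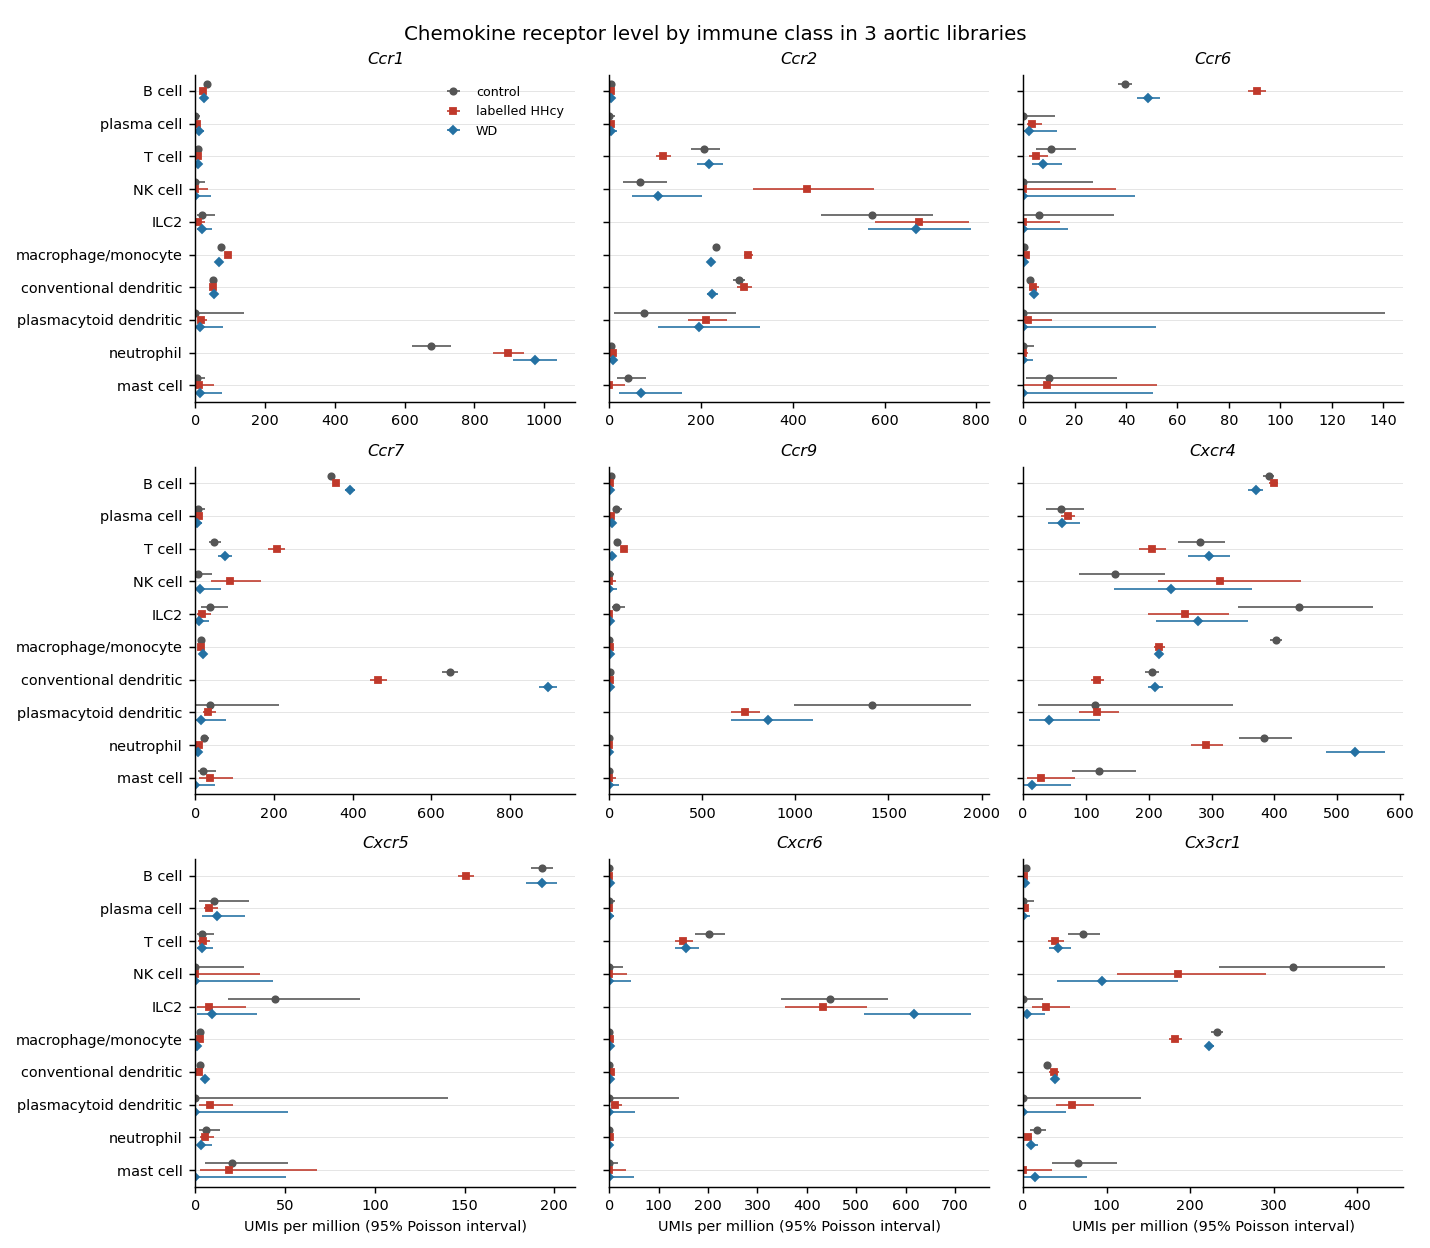
Level of each of the 9 receptors (x axes, CPM, each panel on its own scale from 0) in 10 named immune classes (y axes); points are the 3 libraries, 1 per group, and bars are 95% Poisson intervals. Cxcr5 and Ccr6 stand out in B cells, Ccr1 in neutrophils and Ccr9 in plasmacytoid dendritic cells, where the control library holds only 3 cells; Cxcr4 is spread over most classes.

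Cxcr5, the receptor for CXCL13 that brings B cells to follicles, was measured in B cells at 193, 151 and 193 CPM. The library labelled HHcy was the low one, and no other class went above 44.6 CPM in any library. After thinning every cell to 1000 UMIs, so that depth could not set the share, 15.7%, 13.2% and 14.4% of B cells had a Cxcr5 UMI. For macrophages and monocytes, taken as the comparison class, the shares were 0.306%, 0.677% and 0.189%. The source of their Cxcr5 UMIs was not tested. Unthinned, the shares were 63.6%, 56.9% and 57.8% of B cells (median depths 7509, 6431 and 6679 UMIs) and 1.76%, 1.92% and 0.941% of macrophages and monocytes (7413, 8248 and 9173 UMIs). Among B cells, the B1 subset (innate-like B cells, named from Zcwpw1, Ctla4, Bhlhe41 and others) had the highest level, at 237, 229 and 254 CPM. Naive follicular B cells had 138, 125 and 137 CPM and immature B cells 101, 131 and 105 CPM. All 3 B1 values lay above all values of the follicular and immature subsets.

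Ccr6, the receptor for CCL20, was the receptor with the clearest follicular pattern. Its level in B cells was 39.6, 90.9 and 48.6 CPM, with the library labelled HHcy above the other libraries. In the naive follicular subset it was 97.9, 123 and 102 CPM. B1 cells had 25.2, 42.2 and 31.1 CPM, and immature B cells had 2.83, 11.8 and 8.25 CPM. The 3 subsets did not overlap, so Ccr6 and Cxcr5 were ordered oppositely in B1 and follicular cells. Neutrophils gave 0 Ccr6 UMIs in all 3 libraries, which allows up to 3.45, 1.65 and 3.14 CPM (3 counts), and T cells gave 9, 9 and 8.

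Ccr7, the receptor for CCL19 and CCL21, had yet another order among B cells. Immature B cells had 1179.7, 1006 and 1028 CPM, naive follicular B cells 633, 432 and 535 CPM and B1 cells 176, 180.1 and 179 CPM. The order immature, follicular, B1 held in every library with no overlap. Cxcr4 was also lower in B1 cells, at 223, 184 and 176 CPM, than in follicular cells (814, 519 and 671 CPM) or immature cells (716, 560.0 and 582 CPM). A small B cell cluster led by Mef2b, a gene of germinal centre B cells, held 49, 33 and 4 cells. Its Ccr7 level was 19.4 and 20.1 CPM in the control and the library labelled HHcy, and its 4 WD cells gave 0 Ccr7 UMIs, with an interval up to 69.7 CPM. Cxcr4 stood at 282, 340.2 and 510.4 CPM there and Cxcr5 at 89.0, 41.4 and 94.5 CPM, so Ccr7 was low there beside both other receptors.

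**Figure D2:**
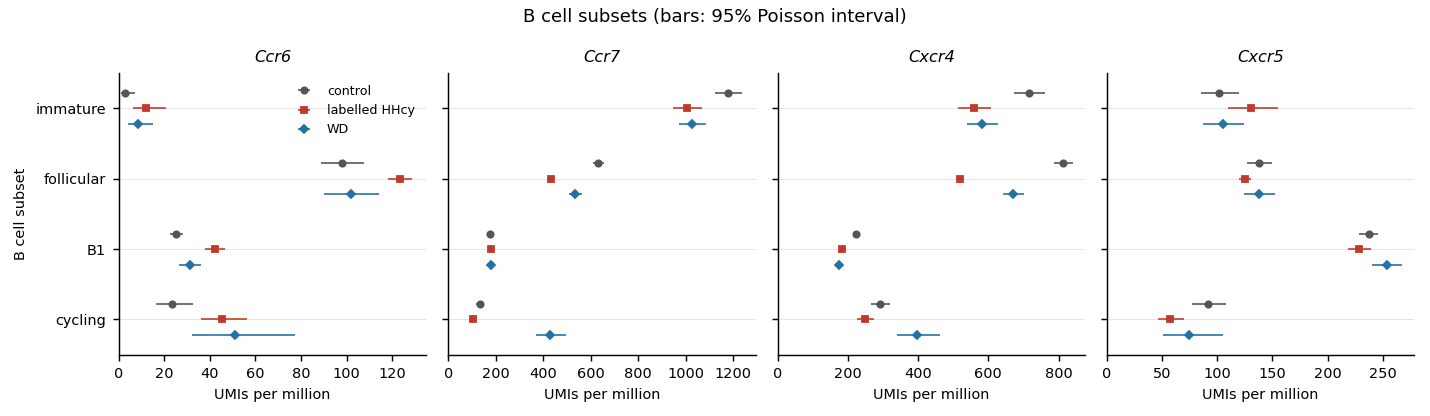
Levels of Ccr6, Ccr7, Cxcr4 and Cxcr5 (x axes, CPM) in 4 B cell subsets (y axis) of the 3 libraries; bars are 95% Poisson intervals. Ccr7 is lower in follicular than in immature cells and lower again in B1 cells in each library, Ccr6 is highest in follicular cells, and Cxcr5 is highest in B1 cells at 229 to 254 CPM.

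Ccr2, the receptor for CCL2 and CCL7, had its highest class level in ILC2, at 574, 675 and 669 CPM, above every other class in each library. Conventional dendritic cells had 283, 294 and 224 CPM, macrophages and monocytes 234, 303 and 221 CPM and T cells 207, 117 and 218 CPM. NK cells had 66.0, 430.5 and 106 CPM from 21, 13 and 13 cells, and the ranges of dendritic cells, macrophages and monocytes, NK cells, T cells and plasmacytoid dendritic cells overlapped from each to the next. B cells were at 3.66, 3.96 and 4.09 CPM; after thinning, 0.181%, 0.300% and 0.490% of them had a Ccr2 UMI, against 14.1%, 15.1% and 14.5% of macrophages and monocytes.

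Within the macrophage and monocyte class, the Ccr2 level ranged widely over the subsets. Classical monocytes, the Ly6c2-high cells that CCR2 releases from bone marrow, had 624, 881 and 682 CPM. Non-classical monocytes, led by Ace and Treml4, had 150.2, 249 and 111 CPM, and resident-like macrophages, led by Cd163, Lyve1 and Folr2, had 81.1, 46.5 and 83.6 CPM. An unnamed subset led by Retnla and Lyz1 had 574, 644 and 771 CPM, in the range of classical monocytes. A subset led by Prg4 and Alox15 had the lowest mean over the libraries, from 14.2, 32.8 and 27.1 CPM. In the library labelled HHcy the 5 cycling cells were lower, at 0 CPM. A subset led by Apoc2 and Spon1 stood at 631, 759.9 and 198 CPM; there the WD library was far below the other libraries. Foamy macrophages had 157, 83.3 and 185 CPM, but joined 2 clusters whose mix differed between the libraries. In the first, led by Gpnmb, Spp1 and Fabp5 (114, 39 and 254 cells), Ccr2 was 191, 128 and 195 CPM. In the second, led by H2-M2, Mmp13 and Dnase1l3 (52, 53 and 28 cells), it was 67.6, 24.1 and 42.8 CPM. The second cluster held 53 of the 92 foamy cells of the library labelled HHcy, and the first 254 of the 282 under WD. The range of the first lay above that of the second. Cells led by Cd72 and Trem2 had 245, 191 and 305 CPM.

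Cx3cr1, the receptor for CX3CL1 and a survival receptor of patrolling monocytes, was measured in macrophages and monocytes at 232, 182 and 223 CPM. NK cells had 323, 186 and 94.3 CPM (44, 19 and 8 UMIs), which overlapped with that range, and the order of both classes turned when UMIs were pooled over libraries (log2 ratio -0.01 against 0.08 for the mean of libraries). T cells had 71.4, 38.4 and 42.3 CPM, and B cells 2.91, 1.43 and 2.79 CPM. The highest levels among macrophage and monocyte subsets were those of non-classical monocytes, at 367, 316 and 358 CPM, and of cells led by Cd72 and Trem2, at 311, 319 and 353 CPM. Classical monocytes had 189, 131 and 97.7 CPM and resident-like macrophages 127, 75.9 and 96.2 CPM. Ccr2 and Cx3cr1 were thus ordered oppositely in classical and non-classical monocytes in all 3 libraries, and the cells led by Cd72 and Trem2 carried both.

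Ccr1, a receptor for CCL3, CCL5 and other inflammatory chemokines, had its highest level in neutrophils. Neutrophils gave 31.8% of its UMIs and macrophages and monocytes, which were more numerous, 43.7%. Neutrophils had 675, 896 and 973 CPM; macrophages and monocytes followed with 74.6, 93.7 and 66.2 CPM and conventional dendritic cells with 49.4, 51.4 and 52.3 CPM. The neutrophil range did not overlap with any other class. In cells thinned to 1000 UMIs, 49.4%, 58.9% and 60.5% of neutrophils had a Ccr1 UMI (median depths before thinning 4297, 4408 and 3860 UMIs), against 0% (up to 2.19%), 0.943% and 0.654% of T cells (4007, 6087 and 4829 UMIs). Unthinned, the shares were 80.5%, 90.6% and 86.4% of neutrophils and 3.47%, 4.65% and 2.60% of T cells. Neutrophils were themselves graded: those led by Bcl2a1a and Il1a had 1237, 1319.6 and 1448 CPM, those led by interferon-response genes such as Ifit1 1093, 1020.4 and 1052 CPM, those with the granule genes Ltf and Ngp 411, 378 and 356 CPM and cycling cells 118, 85.5 and 135 CPM. The 4 neutrophil subsets did not overlap.

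Among mononuclear phagocytes, Ccr1 was high in classical monocytes (178, 181 and 129 CPM) and in the cells led by Prg4 and Alox15 (197, 169.9 and 167 CPM). The latter had the lowest mean Ccr2 level of the macrophage and monocyte subsets. The foamy cluster led by Gpnmb and Spp1 (155, 102 and 158 CPM) and the cells led by Apoc2 and Spon1 (54.6 to 186 CPM) overlapped with the classical monocytes. In non-classical monocytes Ccr1 was 8.36, 26.1 and 10.2 CPM. Among conventional dendritic cells it was highest in the cDC2 subset, at 107, 109 and 83.0 CPM, followed by cycling cells at 21.3, 18.9 and 71.5 CPM. B1 cells had 46.1, 46.9 and 36.8 CPM against 13.9, 8.85 and 9.81 CPM in follicular B cells, and the B1 range lay above that of T cells (6.05, 6.31 and 6.73 CPM).

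**Figure D3:**
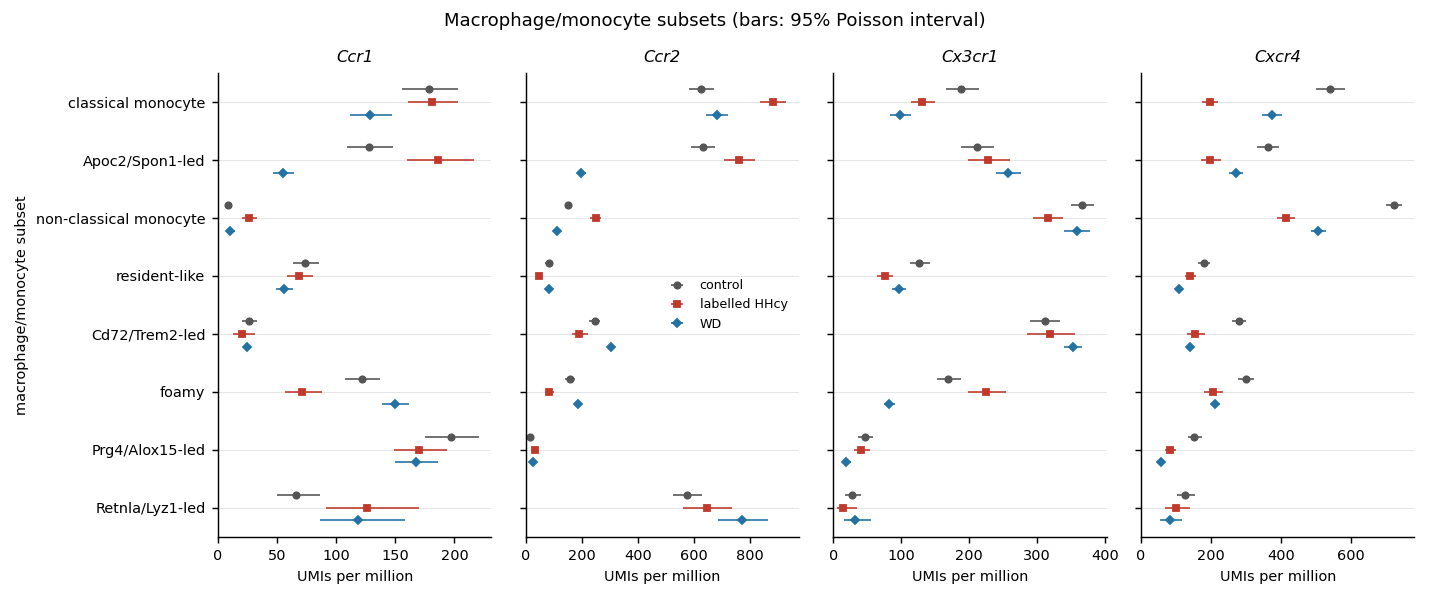
Levels of Ccr1, Ccr2, Cx3cr1 and Cxcr4 (x axes, CPM) in 8 macrophage and monocyte subsets (y axis) of the 3 libraries; bars are 95% Poisson intervals. Ccr2 is high in classical monocytes and in the cells led by Retnla and Lyz1, Cx3cr1 in non-classical monocytes and the cells led by Cd72 and Trem2, and in each of the 8 subsets Cxcr4 is lower in both other libraries than in the control.

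Cxcr6, the receptor for CXCL16, went above 15 CPM in only 2 of the 10 named classes. ILC2 had 446, 433 and 617 CPM and T cells 202, 150.2 and 156 CPM, without overlap. Macrophages and monocytes had 0.113, 0.532 and 0.683 CPM (2, 6 and 20 UMIs), and NK cells 0 UMIs in each library, where 3 counts would be 22, 29.3 and 35.4 CPM. Among T cells, those with γδ or IL-17 markers (Il17a, Cd163l1, Blk) had 794, 1178 and 784 CPM from 18, 22 and 23 cells. Cells led by Itga1 and Gzmk, which also carried Cd8a, had 206, 155 and 85.6 CPM, and naive T cells 49.4, 22.3 and 20.4 CPM. The γδ or IL-17 cells also had the highest Ccr2 level of the T cells, 578, 433 and 653 CPM, against 0, 20.2 and 20.4 CPM in naive T cells, whose control value of 0 allows up to 21.2 CPM. Cxcr6 and Ccr2 were therefore both high in ILC2 and γδ or IL-17 T cells, but not confined to them. Regulatory T cells had Ccr2 at 248 to 424 CPM and Cxcr6 at 57.5 to 144 CPM. In the cells led by Itga1 and Gzmk, Ccr2 was 77.5 to 189 CPM. Cycling T cells had Ccr2 at 95.4 to 147 CPM and Cxcr6 at 43.5 to 89.4 CPM.

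Ccr9, the receptor for CCL25, was highest in plasmacytoid dendritic cells, at 1410.5, 729 and 853 CPM. The control and WD values rest on 3 and 6 cells (37 and 61 UMIs) and that of the library labelled HHcy on 40 cells (359 UMIs). T cells had 41.1, 80.3 and 15.4 CPM, and no other class with at least 100 cells in a library passed 8.22 CPM. The cycling T cells, whose leading genes include Dntt, a gene of lymphocyte precursors, had 68.0, 177 and 34.3 CPM from 24, 41 and 27 cells. Naive T cells had 98.7, 22.3 and 10.2 CPM, from 14, 11 and 1 UMIs; the counting intervals of the naive and cycling cells overlapped in the control and under WD, and the cycling cells were higher in the library labelled HHcy. Neutrophils gave 0 Ccr9 UMIs in every library, with the same upper limits as for Ccr6.

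Outside the B cells, Ccr7 was highest in mature dendritic cells and then in naive T cells. Conventional dendritic cells had 647, 465 and 897 CPM as a class. Mature dendritic cells, led by Fscn1, Cacnb3 and Il4i1, had 4048, 4183 and 3289 CPM, while cDC2 had 183, 102 and 204 CPM and cDC1 4.59, 12.6 and 114 CPM. Ccr2 was lowest where Ccr7 was highest: 5.50, 2.48 and 34.7 CPM in mature cells, 419, 401 and 314 CPM in cDC2 and 247, 275 and 191 CPM in cDC1. Naive T cells had a Ccr7 level of 183, 545 and 408 CPM, and regulatory T cells 17.5, 195 and 144 CPM. The regulatory subset was led by Tnfrsf4 and Foxp3 and also by antigen-presentation genes (Cd74, H2-Aa, Cst3), which are not T cell genes; their part in its receptor levels was not tested.

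**Figure D4:**
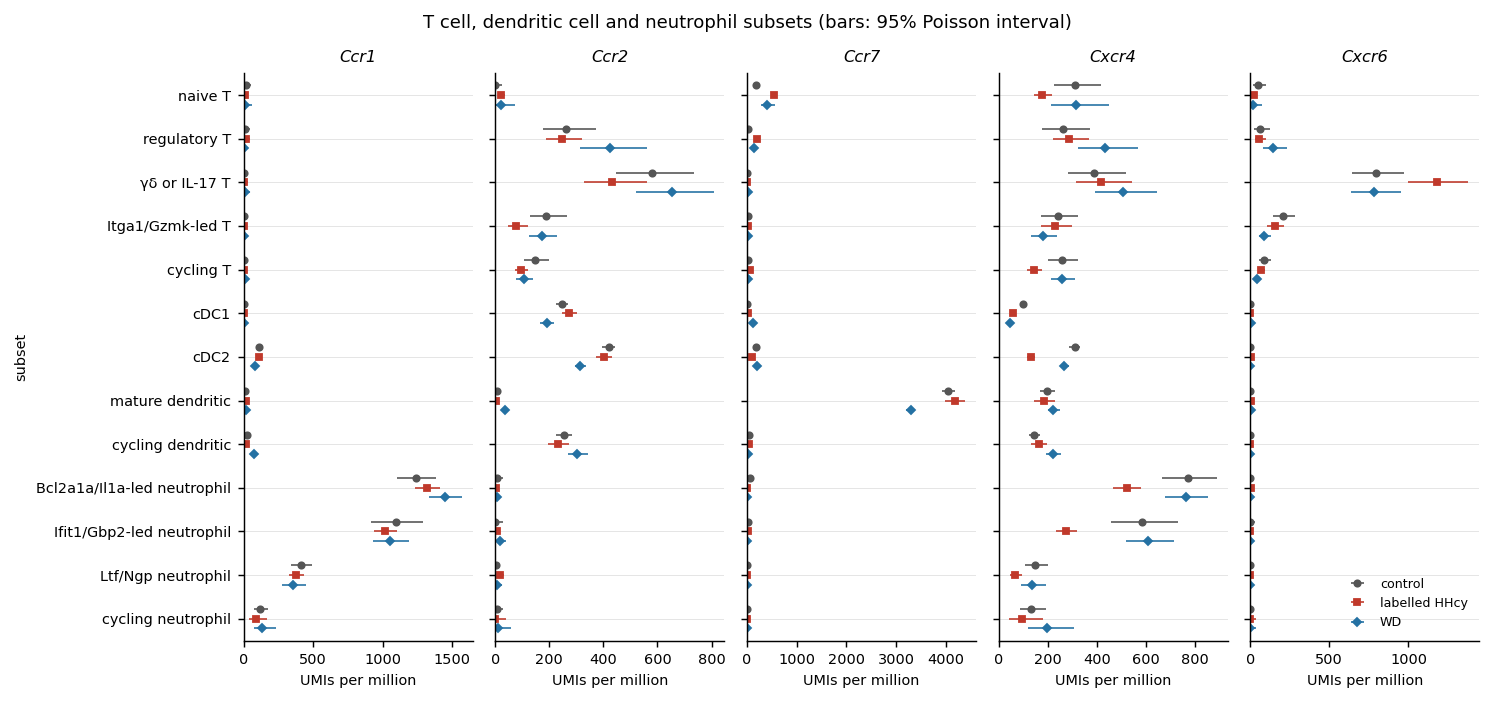
Levels of Ccr1, Ccr2, Ccr7, Cxcr4 and Cxcr6 (x axes, CPM) in 13 subsets of T cells, conventional dendritic cells and neutrophils (y axis) of the 3 libraries; bars are 95% Poisson intervals. Ccr7 reaches 3289 to 4183 CPM in mature dendritic cells, Cxcr6 is high in γδ or IL-17 T cells, and Ccr1 is graded over the neutrophil subsets from 85.5 to 1448 CPM.

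Cxcr4, the receptor for CXCL12, was the receptor with the widest spread. Neutrophils had 384, 292 and 528 CPM, B cells 391, 399 and 370.2 CPM, ILC2 439.7, 258 and 278 CPM, macrophages and monocytes 403, 217 and 216 CPM and T cells 282, 205 and 295 CPM. The ranges of the 7 highest classes overlapped from each to the next, and neutrophils and B cells changed places when cells were thinned (log2 ratio -0.13) or libraries pooled (-0.06, against 0.05 for the mean of libraries). In non-classical monocytes the level was 723, 414 and 506 CPM, against 179, 139 and 108 CPM in resident-like macrophages. Neutrophils led by Bcl2a1a and Il1a had 771, 521 and 761 CPM, against 149, 67.7 and 135 CPM in those with Ltf and Ngp.

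The comparison of each treated library with the control asks which receptors differed within a class. A receptor was counted as different when it had at least 20 UMIs over both libraries, differed at least 1.5-fold and had a counting interval that excluded equal levels. Such a count describes pairs of libraries, not conditions. Over the 5 largest compared classes (B cells, T cells, macrophages and monocytes, conventional dendritic cells and neutrophils), 13 of 33 receptor and class pairs differed between the library labelled HHcy and the control, 4 higher and 9 lower, where 10.5% of all genes tested in these classes did. Between WD and control it was 9 of 34 pairs, 3 higher and 6 lower, against 8.12% of all genes. The 13 became 20 with doublets kept and 5 after thinning, and the 9 became 3 after thinning. The share of all genes under these settings is not given here, so these changed counts were not read against it. Of the 22 differences at the main setting, 3 stayed past 1.5-fold in the same direction under every alternative run. All 3 were Cxcr4: in macrophages and monocytes in both comparisons, and in conventional dendritic cells of the library labelled HHcy. Their log2 ratios of -0.89, -0.90 and -0.80 did not reach a fold limit of 2. In 5 pairs of each comparison a level was under 10 CPM. Per library, the counts behind these ratios ran from 2 UMIs (Cxcr6, control macrophages and monocytes) to 164 UMIs (Ccr9, control B cells).

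In B cells, 4 of 8 receptors differed in the library labelled HHcy, where 11.1% of all genes tested in B cells did, and 1 of 8 in the WD library, where 4.89% did. The median log2 ratio of the receptors was -0.16 and -0.03, beside -0.04 and 0.0015 over all genes. Ccr6, at 39.6 CPM in the control, stood at 90.9 CPM in the library labelled HHcy, 1.20 higher on the log2 scale (interval 1.08 to 1.31). B1 cells made up 49.7%, 18.9% and 38.6% of B cells and follicular cells 33.3%, 71.3% and 40.0%, so the subset with most Ccr6 was also most frequent in that library. With both libraries given the same mix of sub-clusters, the Ccr6 difference was 0.44, and the level was higher in 4 of 4 subsets compared, in 3 of them with an interval above 0. Ccr1, at 32.5 and 20.4 CPM, was 0.67 lower as a class value (log2 ratio -0.67) and 0.00 with the same mix. The same step moved Cxcr4 the other way: 391 and 399 CPM as class values (log2 ratio 0.03) became -0.53 with the same mix, and Ccr7, at 345 and 357 CPM, became -0.42. In the follicular subset itself control and library labelled HHcy had 814 and 519 CPM of Cxcr4 and 633 and 432 CPM of Ccr7. The other counted B cell receptors were low: Ccr9 at 8.22, 3.49 and 4.39 CPM (log2 ratios -1.23 and -0.91, but -0.31 with the same mix in the library labelled HHcy and -0.26 after thinning under WD) and Cx3cr1 at 2.91 and 1.43 CPM in the control and the library labelled HHcy (-1.02). Of 20 genes of the dissociation response, described with the macrophages below, 8 were lower in the B cells of the library labelled HHcy (median -0.46) and 0 in those of the WD library (median -0.02), and their part in these values was not tested.

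In macrophages and monocytes, 2 of 7 receptors differed in the library labelled HHcy (6.1% of all genes) and 3 of 8 in the WD library (7.91% of all genes). Their median log2 ratio was 0.10 and -0.07, and that of all genes -0.03 and -0.02. Cxcr4, at 403, 217 and 216 CPM, was lower in both: the library labelled HHcy had a log2 ratio of -0.89 (interval -0.96 to -0.83) and the WD library one of -0.90 (-0.95 to -0.85). After thinning, 31.0%, 18.1% and 20% of these cells had a Cxcr4 UMI. With the same mix of sub-clusters the ratios were -0.80 and -0.61, and over all alternatives they ranged from -0.93 to -0.80 and from -0.91 to -0.61. Cxcr4 was lower in 8 of 9 subsets in the library labelled HHcy, the exception being the cycling cells, of which that library held 5, and in 9 of 9 subsets in the WD library. Classical monocytes had 540.5, 196 and 373 CPM, with no overlap of the counting intervals. Enzymatic digestion is known to induce stress genes, and 20 genes of this dissociation response, chosen after the data had been seen, were measured. In each comparison 1 of 20 was lower and 0 higher, with medians of -0.14 and -0.09 on the log2 scale. Their part in the Cxcr4 values was not tested. Ccr2 and Cx3cr1, by which monocyte subsets are commonly told apart together with Ly6C, and Ccr1 stayed under 1.5-fold in both comparisons as class values. The other counted receptors were at or under 2.48 CPM in every library: Ccr9 (1.19 and 2.39 CPM, log2 ratio 1.01, in the library labelled HHcy) and, under WD, Cxcr5 (2.32 and 0.956 CPM, -1.28) and Cxcr6 (2 and 20 UMIs, 2.60, interval 0.55 to 5.74). The ratios of Ccr9 and Cxcr6 changed sign with stricter doublet limits (-0.19 and -1.23).

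In T cells, 4 of 6 receptors differed in the library labelled HHcy (9.2% of all genes) and 3 of 6 in the WD library (8.05% of all genes). The receptor medians were -0.45 and -0.16 on the log2 scale, against -0.05 and 0.05 for all genes. Ccr7, at 48.4, 206 and 74.0 CPM, was 2.09 higher on the log2 scale in the library labelled HHcy (1.62 to 2.60) and 0.61 higher in the WD library (0.04 to 1.20). Naive T cells, its main T cell carriers, were 19.4%, 32.1% and 13.6% of T cells. With the same mix of sub-clusters the differences were 1.62 and 1.09, and with cells named singly, from their own markers, 0.53 and -1.15, so the WD direction depends on how T cells are picked. Ccr2, at 207, 117 and 218 CPM, was lower in the library labelled HHcy (-0.82), with lower values in 4 of 4 subsets and an interval below 0 in 2 of them. The ratio was under the limit with the same mix (-0.47) and with libraries clustered singly (-0.29). Cx3cr1, at 71.4, 38.4 and 42.3 CPM, was lower in both (-0.89 and -0.76); with the same mix the ratio in the library labelled HHcy was -0.54, and with doublets kept that under WD was -0.015, both under the limit. Ccr9, at 41.1, 80.3 and 15.4 CPM, was higher in the library labelled HHcy (0.96) and lower in the WD library (-1.42); without the cycling T cells, an alternative chosen after seeing the data, the first ratio was -0.37, and the WD library kept 1 Ccr9 UMI. Of the 20 dissociation genes, 10 were lower in the T cells of the library labelled HHcy and 9 in those of the WD library (medians -0.62 and -0.54), and their part in these differences was not tested.

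In conventional dendritic cells, 1 of 8 receptors differed in each comparison, against 9.05% of all genes for the library labelled HHcy and 8.73% for the WD library. The receptors had median log2 ratios of 0.06 and 0.29, and all genes 0.08 and -0.01. Cxcr4, at 205, 118 and 211 CPM, was lower in the library labelled HHcy (log2 ratio -0.80, interval -0.95 to -0.65), and -0.77 with the same mix. It was lower in cDC2, at 309, 131 and 267 CPM, and in cDC1, at 99.4, 58.6 and 45.1 CPM (-0.76 in the library labelled HHcy, interval -1.16 to -0.38). In mature dendritic cells, at 198, 183 and 223 CPM, and cycling dendritic cells, at 144, 164 and 221 CPM, the interval for that library included 0. In the WD library it was Cxcr5, at 2.76 and 5.16 CPM (0.90), whose sign changed with stricter doublet limits (-0.25) and when 2 clusters led by markers of other classes were kept (-0.68). Ccr7, at 647 CPM in the control and 897 CPM under WD, was 0.47 higher, short of the limit. Mature dendritic cells were 18.1%, 13.1% and 29.3% of the class, and with the same mix the Ccr7 ratio under WD was -0.21. Among the 20 dissociation genes, 2 were lower and 0 higher in each comparison (medians -0.20 and -0.13), and their part in these values was not tested.

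In neutrophils, 2 of 4 receptors differed in the library labelled HHcy and 1 of 4 under WD, where 22.3% and 14.4% of all genes did. Median log2 ratios were -0.85 and -0.16 for the receptors and -0.23 and -0.06 for all genes. These were Ccr7, at 23.0, 9.37 and 6.27 CPM (20, 17 and 6 UMIs; log2 ratios -1.30 and -1.87), and Cx3cr1, at 16.1 and 5.51 CPM in the control and the library labelled HHcy (-1.55). The Ccr7 ratios became 0.31 and 0.31 with stricter doublet limits and 2.01 and 2.84 with cells named singly. The receptors that neutrophils carry in quantity were under the limit: Ccr1, at 675, 896 and 973 CPM, had log2 ratios of 0.41 and 0.53, and of -0.01 with the same mix in the library labelled HHcy. Cxcr4, at 384, 292 and 528 CPM, was -0.40 and 0.46 from the control, and lower in 4 of 4 subsets of the library labelled HHcy (-0.76 with the same mix). Cycling neutrophils were 15.4%, 2.8% and 5.3% of neutrophils and those with Ltf and Ngp 30.2%, 19.4% and 14.5%. Of the 20 dissociation genes, 6 were lower in the neutrophils of the library labelled HHcy (median -0.38) and 3 higher in those of the WD library (median 0.05), and their part in these values was not tested.

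**Figure D5:**
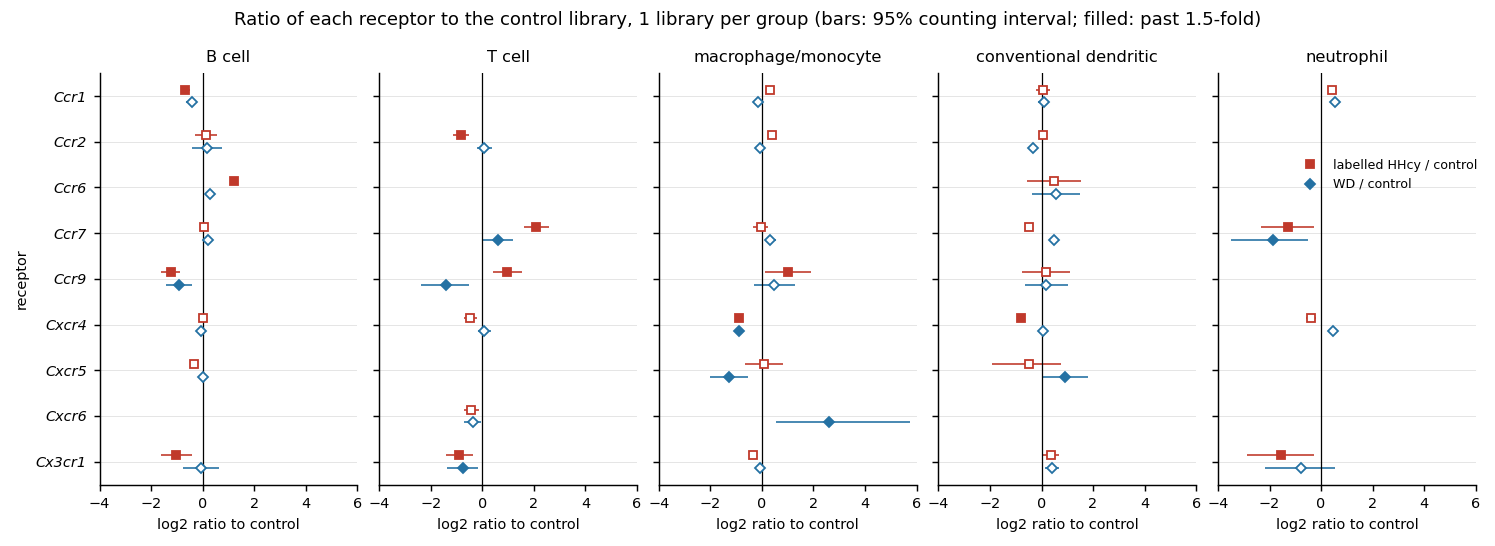
Log2 ratio of each receptor (y axis) to the control library in 5 classes (panels), for the library labelled HHcy and the WD library, 1 library per group; bars are 95% counting intervals, filled points are at least 1.5-fold from the control with an interval off 0, and pairs under 20 UMIs are not drawn. Cxcr4 in macrophages and monocytes is at -0.89 and -0.90 with narrow intervals, Ccr6 in B cells at 1.20 in the library labelled HHcy, and several filled points with wide intervals are receptors at a few CPM.

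Combinations of receptors in single cells were read in cells thinned to 1000 UMIs. Macrophages and monocytes with a Cx3cr1 UMI had a Ccr2 UMI in 12.7%, 14% and 16.4% of cells, against 14.5%, 15.4% and 14.1% of those without. The intervals overlapped in each library, so at this depth the pair was seen neither as exclusive nor as joined. With all UMIs, where depth differs between cells, the shares were 37.8%, 40.9% and 46.3% against 32.3%, 26.7% and 32.4%. Those intervals overlapped only in the control. In thinned cells with a Ccr1 UMI, 29.4%, 34.7% and 17.7% had a Ccr2 UMI, against 13.1%, 13.8% and 14.3% of those without. The intervals of that pair overlapped under WD. In B cells a Cxcr4 UMI went with Ccr7 more often, in 38.4%, 33.5% and 39.4% of cells against 23.4%, 29.3% and 27.8% of those without. Here the intervals overlapped in the library labelled HHcy. Cxcr4 and Ccr7 were both lower in B1 cells than in follicular or immature cells, and the part of the subset mix was not tested. In conventional dendritic cells, 7.6%, 4.6% and 15.0% of the cells with a Ccr2 UMI had a Ccr7 UMI, against 22%, 15.6% and 35.4% of those without. Again the intervals overlapped in the library labelled HHcy. At this depth 38.6%, 35.9% and 37.7% of B cells and 44.1%, 54.2% and 52.8% of macrophages and monocytes showed no UMI of any of the 9 receptors, so a cell without a UMI cannot be read as lacking a receptor.

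Over 99 profiles (each library and each class or subset with at least 20 cells), the genes with the most similar pattern were found by Pearson's r of log2(CPM + 10). The profiles share libraries and nested cells, so r is a description. Cxcr5 had Ebf1 (0.95) and Ms4a1 (0.94) among the genes most like it, and Ccr6 was most like Gm4610 (0.84), Cr2 (0.82) and Cdh17 (0.81). Ccr1 was most like Hcar2 (0.90), Csf3r (0.88) and Clec4d (0.87), and Cx3cr1 like Lair1 (0.83), Cln8 (0.81) and Smpdl3b (0.80). Ccr7 was most like Tmem123 (0.85), Cd200 (0.82) and H2-Eb2 (0.79), Ccr2 like Ppp1r9b (0.81), Capn2 (0.80) and S100a4 (0.79), and Cxcr6 like Xlr4c, Icos and Tcrg-C4 (0.92 each). Ccr9 (Ptprf 0.77, Dntt 0.73, Tbxa2r 0.69) and Cxcr4 (among others Ptk2b 0.71 and Sema4d 0.69) had no gene above 0.77. Among the receptors themselves, Ccr6 and Cxcr5 were most alike (0.79), followed by Ccr2 and Cx3cr1 (0.60), and Ccr2 and Cx3cr1 were each least like Cxcr5 (-0.56).

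The ligands were looked for in the same cells. Cxcl12, the ligand of CXCR4, was at 785, 717 and 1453 CPM in the few stromal cells and at no more than 8.95 CPM in B cells, dendritic cells or macrophages and monocytes. Ccl19, a ligand of CCR7, was at 253, 465 and 1168 CPM in stromal cells, where the 30, 88 and 169 cells passed a sort meant for CD45+ cells. Cxcl13, the ligand of CXCR5, was measured in macrophages and monocytes at 66.4, 149 and 78.4 CPM and in stromal cells at 0, 273 and 104 CPM. Cxcl16, the ligand of CXCR6, was at 408, 215 and 529 CPM in conventional dendritic cells and at 322, 239.9 and 422 CPM in macrophages and monocytes. Ccl2, Ccl7 and Ccl12, the ligands of CCR2, stood at 673, 705 and 1229 CPM, 566, 619.8 and 1061 CPM and 220.1, 224 and 511 CPM in macrophages and monocytes; all 3 were highest in the WD library, by 0.87, 0.91 and 1.22 on the log2 scale from the control. The few mast cells (34, 24 and 10) had more Ccl2 (2618, 3605 and 3529 CPM) and Ccl7 (2587, 4682 and 4145 CPM). Over the 5 classes, ligand and class pairs past the limit were 4 higher and 6 lower of 49 for the library labelled HHcy, and 13 higher and 1 lower of 51 for the WD library. That is 20.4% and 27.5% of the pairs, against 10.5% and 8.12% of all genes in these classes.

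The other chemokine receptors, 15 genes, gave 1 higher and 1 lower of 23 pairs for the library labelled HHcy and 5 higher and 1 lower of 22 for the WD library (8.7% and 27.3%, against 10.5% and 8.12% of all genes). Cxcr2, the main receptor for neutrophil recruitment, was at 375, 561 and 508.0 CPM in neutrophils, and Ccrl2, an atypical receptor, was at 1087, 1306 and 1903 CPM there. Of the 23 genes that act below the receptors (G proteins, receptor kinases, arrestins, RGS proteins), 2 higher and 11 lower of 112 pairs passed the limit for the library labelled HHcy and 3 higher and 4 lower of 112 for the WD library. These shares, 11.6% and 6.25%, lay near those of all genes. In macrophages and monocytes, 2 of 23 were lower in the library labelled HHcy and 1 of 23 in the WD library, with 0 higher. Of all genes in that class, 6.1% and 7.91% passed the limit. Rgs1 stood at 953, 615 and 998 CPM there (log2 ratio -0.63 in the library labelled HHcy) and Rgs2 at 588, 382 and 492 CPM (-0.62). Grk3, a receptor kinase, was at 209, 152 and 114 CPM (-0.87 under WD). Their relation to Cxcr4 was not tested. In neutrophils Rgs1 was at 189.8 and 38.6 CPM in the control and the library labelled HHcy (-2.30), where the median over all genes was itself -0.23.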

How the data were processed

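The authors deposited 1 matrix of raw UMI counts per library, whole numbers per gene and barcode. Its file header names Cell Ranger 4.0.0, while the submitters' processing notes name Cell Ranger 2.2.0 and the build mm10. No column of another sample was used (0 such columns), and the members, gene lists and rules were chosen with earlier results of these data known.

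Barcodes with under 200 genes or over 10% mitochondrial UMIs were left out, as were 691, 1885 and 1477 barcodes (control, library labelled HHcy, WD) that carried markers of 2 lineages above limits set after the data were examined (B 6 of 12 markers, T and NK 5 of 15, myeloid 11 of 20, neutrophil 7 of 12, stromal 5 of 14). The rest were clustered together with scanpy 1.11.5 (2000 variable genes, 30 principal components, 20 neighbours, Leiden resolution 1, within classes 0.5, seed 1), with chemokine and chemokine receptor genes kept out of the variable genes and of the markers. Clusters were named from fixed markers with a score of at least 0.2; limits on a close second name were set after the data were examined. Clusters of 106, 150 and 204 cells stayed unnamed, and 147, 175 and 134 further cells were removed from the B cell and conventional dendritic classes, in 3 sub-clusters with at least 3 markers of another class among their 30 leading genes, a limit also set after the data were examined (1 of them scored as cDC2). Sub-clusters with the same name were joined (B1, follicular and foamy cells). UMI sums per class gave CPM with exact Poisson intervals, shares of cells exact Clopper-Pearson intervals and ratios exact conditional binomial intervals (scipy 1.17.1), all at 95%. Thinning to 1000 UMIs left out 107, 125 and 137 shallower cells. All 9 receptors are named; similar genes are the 3 with the highest r among genes with at least 200 UMIs, and ligands, other receptors and signalling genes come from written lists, with values for those at or above 100 CPM in a class or past the fold limit. The ratio rule was tested on simulated counts with known changes, and thinning was checked to leave 1000 UMIs per cell. Clustering and naming were not tested on simulated data. The alternatives were other doublet limits, a 20% mitochondrial limit, thinning, Leiden resolution 2, cells named singly, libraries clustered singly, equal sub-cluster mixes, rescaled totals, a fold limit of 2 and no UMI minimum; 2 were added after seeing the data, T cells without their cycling sub-cluster and the removed sub-clusters kept.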

Additional observations from a re-analysis of the deposited data

Results flagged for a closer look

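For 3 receptors, the class values moved in opposite directions from the control in different classes of the same library, each past 1.5-fold with an interval off 0. The difference between classes was not tested, and each class is 1 library against 1. Ccr7 in the library labelled HHcy had a log2 ratio of 2.09 in T cells and -1.30 in neutrophils, and in the WD library 0.61 in T cells and -1.87 in neutrophils, where its level was between 6.27 and 23.0 CPM. Ccr9 in the library labelled HHcy had a log2 ratio of 0.96 in T cells, 1.01 in macrophages and monocytes and -1.23 in B cells, and only the T cell level was above 10 CPM. Cxcr5 in the WD library had a log2 ratio of -1.28 in macrophages and monocytes and 0.90 in conventional dendritic cells, at levels of 0.956 to 5.16 CPM. Several of these ratios changed sign under an alternative, so the opposite directions do not hold throughout: Ccr7 in neutrophils became 2.01 and 2.84 with cells named singly, Ccr7 in T cells of the WD library -1.15, Ccr9 in the library labelled HHcy -0.37 among T cells without the cycling ones and -0.19 among macrophages and monocytes with stricter doublet limits, and Cxcr5 in dendritic cells of the WD library -0.25.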

How the results depend on the processing

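No paired analysis was possible because each group has 1 library and the shared number 1 pairs nothing. The count of receptor and class pairs past the limit in the library labelled HHcy, 13, was 20 with doublets kept, 5 after thinning to 1000 UMIs and 7 at a fold limit of 2; in the WD library, 9 became 3 after thinning and 4 at a fold limit of 2. Thinning removes UMIs and also moved the ratios themselves, and the higher limit admits fewer pairs. What changed the counts after thinning or with doublets kept was not tested. These counts have no share of all genes under the same setting beside them, so they were not compared with other genes. Of the log2 ratios between the highest and the next class, Ccr1 in neutrophils over macrophages and monocytes moved from 3.44 to 3.94 after thinning, Cxcr5 in B cells over ILC2 from 3.12 to 6.45 with doublets kept and 5.63 with stricter limits, and Cxcr6 in ILC2 over T cells from 1.56 to 1.11 with stricter limits. Cxcr4 in neutrophils over B cells, 0.05, was -0.13 after thinning and -0.058 with pooled libraries, and Cx3cr1 in macrophages and monocytes over NK cells, 0.08, was -0.012 with pooled libraries. Without the library labelled HHcy the ratios over all 9 receptors ran from 0.12 to 5.32. Of the 22 single ratios past the limit, 3 stayed past 1.5-fold under all alternatives run, and 19 fell short of it under at least 1. The 3, at -0.89, -0.90 and -0.80, did not reach a fold limit of 2. Among the 22, 14 kept their sign under all alternatives run and 8 did not. For the library labelled HHcy, these were Ccr1 in B cells (0.00038 with the same sub-cluster mix), Ccr9 in T cells (-0.37 without cycling cells), Ccr9 in macrophages and monocytes (-0.19 with stricter doublet limits, -0.039 with libraries clustered singly) and Ccr7 in neutrophils (0.059 with doublets kept, 0.31 with stricter limits, 2.01 with cells named singly). For the WD library they were Ccr7 in T cells (-1.15 with cells named singly), Cxcr6 in macrophages and monocytes (-1.23 with stricter limits), Cxcr5 in conventional dendritic cells (-0.25 with stricter limits, -0.18 with libraries clustered singly, -0.68 with the removed sub-clusters kept) and Ccr7 in neutrophils (0.31 with stricter limits, 2.84 with cells named singly). The cause of each was not tested. Depth limits the receptors at a few CPM, NK cells and plasmacytoid dendritic cells, and pooled mice, dissection and label cannot be told apart from group.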
